A study of Mus musculus with 4 samples.

Results

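The 9 genes followed here control plasminogen activation and the start of blood clotting, and were measured in mouse embryonic fibroblasts (MEFs) with and without Ip6k1, the gene for inositol hexakisphosphate kinase 1: Plau, Plat, Plaur, Serpine2, Serpinb2, Thbd, F3, Tfpi and Tfpi2. Every array probe that is not a control and carries 1 of these 9 gene names was taken, which gave 18 of the 41174 probes on the array and 9 of its 27827 gene names. Of these, 9 probes of 6 genes (Plau, Plat, Plaur, Serpine2, Thbd and F3) were well above background in all 4 lines and entered the test. The other 9 probes, of Plau, Plat, Serpinb2, Tfpi and Tfpi2, were well above background in 2 lines (4 probes), in 1 line (4 probes) or in 0 lines (1 probe), and were not tested.

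The study compared 2 Ip6k1+/+ with 2 Ip6k1-/- MEF lines to look for functions of the kinase. Each line came from 1 E14 embryo, and all 4 embryos had the same heterozygous mother, mated to a heterozygous male, and were sorted by genotyping. All lines, controls included, carry SV40 large T antigen, a viral protein that immortalises cells, and were taken while growing exponentially, after thawing and 2 passages. RNA of each line was labelled with Cy3 and hybridised to 1 single-colour Agilent array, so a p-value measures the spread between 2 embryo-derived lines per genotype.

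Values are log2 of the background-corrected signal relative to the 75th percentile of the same array, so that 0 marks that percentile. They are compared between lines for 1 probe at a time, since a probe's brightness also depends on its sequence. A probe called well above background by the scanner software is said here to be detected. A p-value is from limma, adjusted over the 21572 probes tested by the Benjamini-Hochberg method, and a probe was called at an adjusted p of at most 0.05. Groups are said not to overlap where both Ip6k1-/- lines lay on the same side of both Ip6k1+/+ lines.

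Plasminogen is a circulating precursor that the proteases encoded by Plau (urokinase) and Plat (tissue plasminogen activator) cut into plasmin, which dissolves fibrin and breaks down extracellular matrix. The receptor encoded by Plaur holds urokinase on the cell surface, and serpins such as those from Serpine2 and Serpinb2 trap the activators. Clotting starts when tissue factor, the membrane protein encoded by F3, binds factor VII. Tissue factor pathway inhibitor, from Tfpi, blocks that complex, and thrombomodulin, from Thbd, turns thrombin towards activating protein C. Fibroblasts use the urokinase system in migration, and those of the vessel wall and connective tissue carry tissue factor.

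Between 52.0% and 55.5% of probes were detected on the 4 arrays, which shared 1 slide and 1 scan. Ip6k1 signal followed the labels: probes A_51_P213766 and A_52_P413035 were at least 34.0-fold and 32.7-fold higher in Ip6k1+/+ MEFs and were called (adjusted p = 0.0355 for both, limma), while A_51_P103718 was detected in every line and differed by -4.13 (standard error 0.33). All 6 fibroblast markers (Col1a1, Col1a2, Pdgfrb, Thy1, S100a4 and Vim) were detected in every line, but not at equal levels. Pdgfrb stood at 4.67 and 4.45 with the kinase but at only 3.34 and 3.39 without it, so the genotypes did not overlap. Its difference was -1.20 (standard error 0.19, unadjusted p = 0.00162, adjusted p = 0.795, limma). Thy1 parted the Ip6k1+/+ lines by 5.49 on probe A_51_P420731, and the Ip6k1-/- lines by 2.17. The other 4 were saturated on their brightest probe, where a difference may not show. Of 6 endothelial markers, 5 (Cdh5, Emcn, Pecam1, Tek and Tie1) were detected in no line, and Kdr in every line. Of 6 macrophage markers, 3 (Emr1, Itgam and Ptprc) were detected in no line. Cd14 and Cd68 were detected in every line, and Csf1r in Ip6k1+/+ replicate 1 alone. Of 4 platelet lineage markers, 3 (Gp1ba, Gp9 and Pf4) were detected in no line, and Itga2b in every line.

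Promoter sequence is shown for 3 members with different patterns across the lines: F3, the member with a 2-fold difference and no overlap between genotypes, and Serpine2 and Tfpi, whose signal separated the lines within each genotype. The 250 bases before the annotated start are from RefSeq (GRCm38.p6), at chr3:121723287-121723536 on the plus strand for F3, chr1:79858666-79858915 on the minus strand for Serpine2 and chr2:84476760-84477009 on the minus strand for Tfpi, each written 5′ to 3′. Capitals mark matches, on either strand, to an AP-1 motif (TGANTCA), a GC box (GGGCGG) or a TATA box (TATAAA).
F3: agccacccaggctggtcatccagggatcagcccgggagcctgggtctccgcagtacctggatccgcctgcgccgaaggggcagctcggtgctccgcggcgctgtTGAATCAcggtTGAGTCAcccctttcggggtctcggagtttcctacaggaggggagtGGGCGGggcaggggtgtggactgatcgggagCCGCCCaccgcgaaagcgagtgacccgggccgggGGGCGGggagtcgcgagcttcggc
Serpine2: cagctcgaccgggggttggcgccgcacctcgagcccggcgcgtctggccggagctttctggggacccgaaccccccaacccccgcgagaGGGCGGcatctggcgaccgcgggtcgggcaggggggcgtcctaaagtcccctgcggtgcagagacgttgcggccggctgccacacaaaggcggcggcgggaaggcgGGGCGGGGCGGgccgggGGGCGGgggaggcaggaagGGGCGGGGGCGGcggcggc
Tfpi: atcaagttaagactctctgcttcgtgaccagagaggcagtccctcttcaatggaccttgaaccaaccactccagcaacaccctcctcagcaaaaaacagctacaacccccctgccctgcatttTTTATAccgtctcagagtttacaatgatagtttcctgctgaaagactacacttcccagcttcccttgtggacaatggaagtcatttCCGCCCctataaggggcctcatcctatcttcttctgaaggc

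The F3 sequence holds 2 AP-1 matches, TGAATCA and TGAGTCA, whose first bases lie at positions -146 and -135 from the start, followed by 3 GC boxes, and a reverse-strand TATA match at position 43 after the start, outside the printed part. In the Serpine2 sequence 6 GC boxes and no AP-1 match were found. For Tfpi, 1 of 2 annotated starts is shown, with 1 TATA match and 1 GC box, both on the reverse strand. Of the 9 genes, 6 had a promoter window in the table, 10 windows in all, and none was matched for Plau, Plat and Thbd. Matches to AP-1 also stood before the starts of Plaur (TGACTCA, position -69), Serpinb2 (TGAATCA) and, at 1 of its 3 starts, Tfpi2 (TGAATCA, position -77). Over all 32851 promoter windows of 300 bases, 7.81% held an AP-1 match, 35.7% a GC box and 13.6% a TATA match. The CRE (TGACGTCA), TEAD (GGAATG) and NF-kB motifs, held by 1.79%, 14.7% and 0.411% of all windows, had no match before or just after the starts of these 6 genes. A match is a stretch of letters, and binding was not measured.

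Of the 9 probes tested, 8 had a lower mean in Ip6k1-/- MEFs, but 0 were called by limma, with adjusted p-values from 0.716 to 0.998. Over all probes tested, limma called 0.0139% (3 of 21572). At an unadjusted p under 0.05, limma passed 3 of the 9 probes, both of F3 and 1 of Plat, beside 3.34% of all probes tested. The methods' t-test, named by the study for comparing 2 groups and applied to the arrays here, called no probe after adjustment. For the arrays the study itself gives average fold changes. The genotypes did not overlap for 5 probes of 3 genes (F3, Plat and Plau), all lower in Ip6k1-/- MEFs, where 12.6% of all probes were lower without overlap and 31.5% did not overlap in either direction. On average 3 probes, of F3 and Thbd, were at least 2-fold lower, beside 4.11% of all probes. By gene name these are 2 of the 6 genes tested, beside 5.2% of all gene names. No tested member probe was 2-fold higher, against 1.84% of all probes tested. With 1 probe per gene, the brightest, the median difference was -0.73 over the 6 member genes tested and 0.04 over 14334 gene names. All 6 member genes were below 0, Plaur at -0.03 with its other probe at 0.03, beside 6455 of the 14334 gene names. The plot of the 9 tested probes by line shows these values before any averaging.

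**Figure D1:**
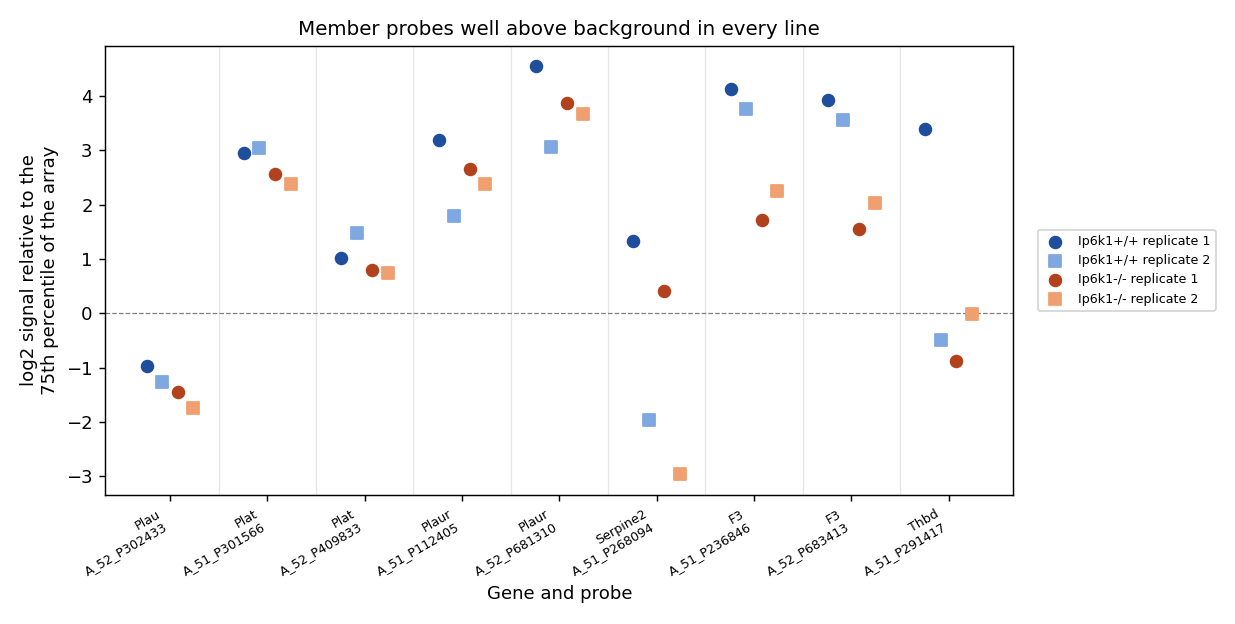
Log2 signal relative to the array's 75th percentile (y axis) for the 9 member probes detected in every line (x axis), with 1 point per line, blue for Ip6k1+/+ and orange-red for Ip6k1-/-, circles for replicate 1 and squares for replicate 2. F3 separates the genotypes on both probes, Thbd is high in 1 Ip6k1+/+ line (3.40), and Serpine2 is high in the replicate 1 line of each genotype (1.33 and 0.41).

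F3, whose product tissue factor starts the extrinsic clotting pathway, had the largest mean difference of the 9 probes. On probe A_51_P236846 (chr3:121437335-121437394, mm9), the Ip6k1+/+ lines were at 4.12 and 3.77, against 1.71 and 2.25 for the Ip6k1-/- lines. Both lines without the kinase were thus below both lines with it, and the gap between genotypes was wider than the gap between the lines of either genotype (0.35 and 0.53). The means were 3.95 ± 0.25 and 1.98 ± 0.38 (SD, n = 2 lines each), a difference of -1.96 (standard error 0.27), or 3.90-fold. Its unadjusted p was 0.00102 in limma and its adjusted p 0.716. The 2 Ip6k1-/- lines differed from the Ip6k1+/+ mean by -2.23 and -1.70. In RNA of whole cultures, fewer cells that express a gene and less of its RNA per cell cannot be told apart. The fibroblast marker Pdgfrb was also lower in both Ip6k1-/- lines, and its part in the F3 values was not tested.

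A second F3 probe, A_52_P683413 (chr3:121437295-121437354, mm9), read 3.92 and 3.56 in the Ip6k1+/+ lines, against 1.55 and 2.04 in the Ip6k1-/- lines. The order of the 4 lines was the same as on the first probe, and the difference was -1.95 (standard error 0.27, adjusted p = 0.716, limma). The 2 probes are not separate readings of the transcript, because they overlap by 20 positions, at chr3:121437335-121437354. The shared stretch is shown 5′ to 3′ because the probes, as designed, do not carry the same letters there, with capitals at the positions that differ.
A_52_P683413: ggacgaacGgaaacCgtaca
A_51_P236846: ggacgaacTgaaacGgtaca

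Of the 20 positions, 18 are identical and 2 differ, G9T and C15G, with the base of A_52_P683413 first and positions counted from 1 at the 5′ end of the stretch. Both probes gave the same direction and nearly the same size of difference with these letters. Taken alone, a 2-fold fall without overlap was seen for 2.4% of all probes tested.

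**Figure D2:**
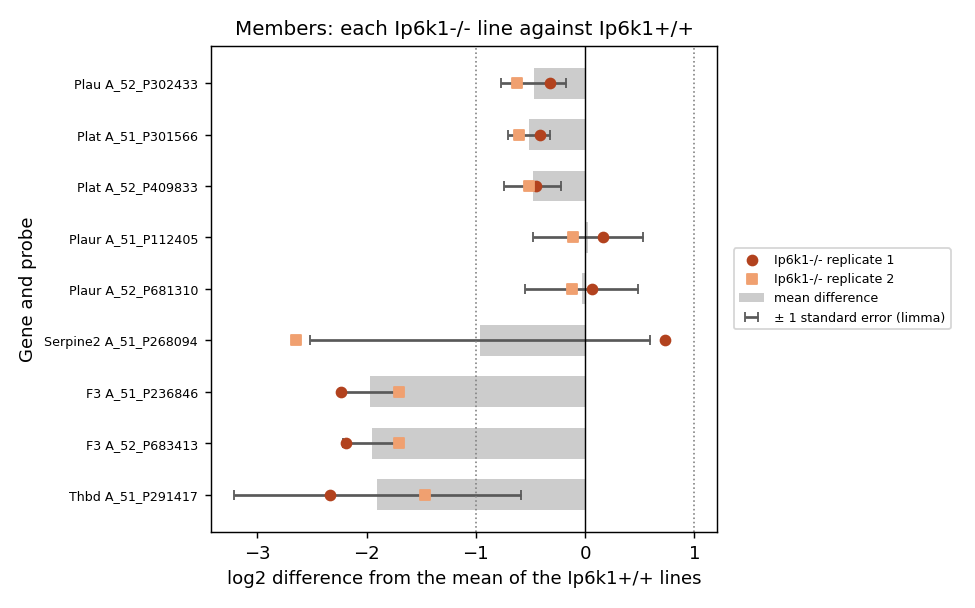
Log2 difference from the mean of the Ip6k1+/+ lines (x axis) for each tested member probe (y axis), with grey bars for the mean of the Ip6k1-/- lines, whiskers for 1 standard error of limma on each side, points for the 2 Ip6k1-/- lines, and dotted lines at a 2-fold difference. Both lines lie past the 2-fold line for F3 and Thbd, but the standard error is 0.27 for F3 and 1.31 for Thbd.

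Thbd encodes thrombomodulin, the endothelial receptor that switches thrombin from clotting to protein C activation, and its difference rested on 1 line. Its only probe, A_51_P291417 (chr2:148230235-148230294, minus strand, mm9), read 3.40 and -0.49 in the Ip6k1+/+ lines, against -0.88 and -0.01 in the Ip6k1-/- lines. One Ip6k1+/+ line stood far above the other 3, and the remaining Ip6k1+/+ line lay between the Ip6k1-/- lines, so the genotypes overlapped. The mean difference of -1.90 had a standard error of 1.31 (unadjusted p = 0.211, adjusted p = 0.993, limma), and without that line it was 0.045. The gap of 3.89 between the Ip6k1+/+ lines was equalled or exceeded by 0.603% of all probes, and that of 0.86 between the Ip6k1-/- lines by 14.0%. Thrombomodulin is a marker of endothelium, and 5 of 6 endothelial markers were dark in every line. The summed signal of the 6 markers, the brightest probe of each, was 0.139 and 0.104 times the 75th percentile in the Ip6k1+/+ lines and 0.180 and 0.393 times it in the Ip6k1-/- lines, most of it from Kdr, the marker detected in every line. Their part in the Thbd values was not tested.

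Tfpi, the inhibitor of the tissue factor and factor VII complex, was detected by each probe in 1 line of each genotype. On 3 of its 4 probes these were the replicate 2 lines. Its 4 probes lie along chromosome 2 on the minus strand, and none was tested. Probe A_52_P592007 (chr2:84293962-84294021, mm9) was detected at -0.64 in Ip6k1+/+ replicate 2 and at 0.27 in Ip6k1-/- replicate 2, but read -7.22 and -7.06, not well above background, in the replicate 1 lines. On A_52_P670263 (chr2:84281022-84281081) the replicate 2 lines were at -0.01 and 0.41, and the replicate 1 lines at -6.71 and -7.04, again not well above background. Probe A_52_P631889 (chr2:84313860-84313919), the most 5′ of the 4, followed the same split at a lower signal, with -3.44 and -2.53 against -7.24 and -7.07. On these 3 probes the detected line of each genotype was replicate 2, so the genotypes overlapped.

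The size of that split can be given as a lower limit, the bright line's signal over the lowest well-above-background signal of the dim line's array, or over the dim reading itself where that is higher. For A_52_P592007 the bright line was at least 23.5-fold above the dim line within Ip6k1+/+ and at least 32.5-fold within Ip6k1-/-. For A_52_P670263 the limits were 36.4-fold and 35.9-fold, and for A_52_P631889 they were 3.37-fold and 4.68-fold. The fourth probe, A_52_P191353 (chr2:84278858-84278917), went another way. On it Ip6k1+/+ replicate 1 (-1.42) and Ip6k1-/- replicate 2 (-3.12) carried signal, and the remaining lines (-7.45 and -7.03) did not. Probes for Tfpi therefore disagreed in both Ip6k1+/+ lines. Epithelial markers also differed by line, with 4 of 6 detected in Ip6k1+/+ replicate 2, 2 in Ip6k1+/+ replicate 1 and 1 in each Ip6k1-/- line. In Ip6k1+/+ replicates 1 and 2 their summed signal was 0.754 and 3.15 times the 75th percentile. In Ip6k1-/- replicates 1 and 2 it was 0.513 and 1.59 times that percentile. Most of it came from Krt18, the marker detected in every line (-0.66 and 1.56 in Ip6k1+/+, -1.35 and 0.55 in Ip6k1-/-). The sum was higher in the replicate 2 line of each genotype, the lines detected on 3 of the 4 Tfpi probes. Cdh1 and Krt14 were dark in all lines. The fibroblast marker Thy1 was also higher in the replicate 2 line of each genotype, on both its probes. On A_51_P420731 it read -4.01 and 1.48 in Ip6k1+/+ replicates 1 and 2, and -1.45 and 0.72 in Ip6k1-/- replicates 1 and 2. The summed signal of the 6 fibroblast markers, 4 of them saturated, was not higher there (450 and 433, and 446 and 439 times the 75th percentile). The part of Thy1 and of the epithelial markers in the Tfpi values was not tested.

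Tfpi2, a related inhibitor of plasmin and of tissue factor complexes, was detected in 1 line. Its probe A_51_P216496 (chr6:3915439-3915498, minus strand, mm9) read -3.73 in Ip6k1+/+ replicate 2, at least 2.77-fold above the other Ip6k1+/+ line. The remaining readings, -7.18 in Ip6k1+/+ replicate 1 and -7.02 and -4.73 in the Ip6k1-/- lines, were not well above background.

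**Figure D3:**
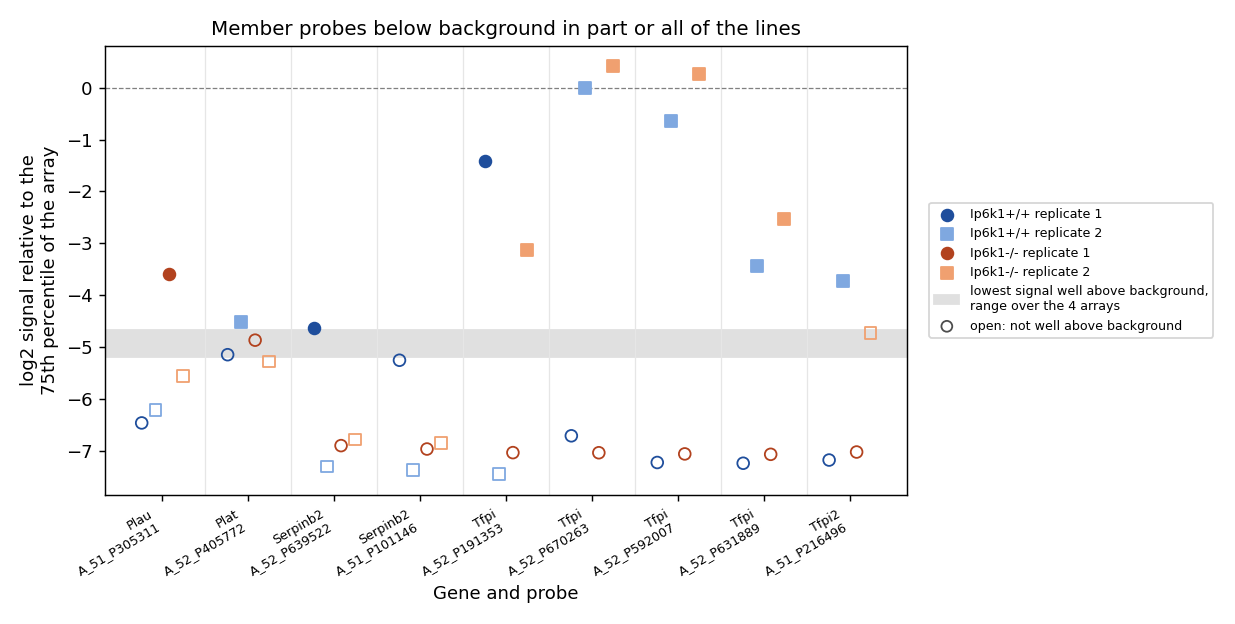
Log2 signal relative to the array's 75th percentile (y axis) for the 9 member probes that were not tested (x axis), 1 point per line, filled where the probe was well above background and open where it was not, over a grey band for the lowest well-above-background signal of the 4 arrays. In the picture 3 Tfpi probes are filled in the replicate 2 line of each genotype (squares) and open in the replicate 1 line of each (circles), and the fourth is not split this way.

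The probes for plasminogen activators that were detected in every line had lower means in Ip6k1-/- MEFs, by less than 2-fold and without passing the adjusted test. Plat, the gene for tissue plasminogen activator, read 2.95 and 3.03 in the Ip6k1+/+ lines on probe A_51_P301566 (chr8:23893092-23893152, mm9) and 2.57 and 2.39 in the Ip6k1-/- lines. A second probe, A_52_P409833 (chr8:23892531-23892590), gave 1.01 and 1.48 against 0.80 and 0.73. Neither probe overlapped between genotypes. The differences were -0.51 (standard error 0.19, unadjusted p = 0.0481, limma) and -0.48 (standard error 0.26, unadjusted p = 0.123, limma), and both had an adjusted p of 0.993. Another probe, A_52_P405772, was detected only in Ip6k1+/+ replicate 2 (-4.51) and read -5.15 in the other Ip6k1+/+ line and -4.87 and -5.28 in the Ip6k1-/- lines.

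Plau, the gene for urokinase, read -0.97 and -1.27 in the Ip6k1+/+ lines on probe A_52_P302433 (chr14:21662242-21662301, mm9) and -1.44 and -1.74 in the Ip6k1-/- lines. All 4 readings were below the 75th percentile of their array, and the genotypes did not overlap. The difference of -0.47 had a standard error of 0.30 (unadjusted p = 0.180, adjusted p = 0.993, limma). The other Plau probe, A_51_P305311, matches sequence on both sides of an intron (chr14:21659855-21660221, mm9) and went the other way. It was detected in Ip6k1-/- replicate 1 alone, at -3.58, at least 2.13-fold above Ip6k1-/- replicate 2 (-5.56), and read -6.46 and -6.21 in the Ip6k1+/+ lines. The line that gave its only reading above background was not the brightest on the first probe.

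Plaur, whose product anchors urokinase at the cell surface, parted the Ip6k1+/+ lines from each other, while the genotype means lay close together. Probe A_51_P112405 (chr7:25259315-25259374, mm9) read 3.20 and 1.79 in the Ip6k1+/+ lines, against 2.65 and 2.38 in the Ip6k1-/- lines. Probe A_52_P681310 (chr7:25260569-25260628) read 4.55 and 3.06, and 3.86 and 3.68. On both probes the Ip6k1-/- lines lay between the Ip6k1+/+ lines. Differences were 0.03 (standard error 0.50) and -0.03 (standard error 0.52), with unadjusted p-values of 0.962 and 0.953 in limma. Leaving out 1 line moved the sign of either probe, between -0.68 and 0.73 for A_51_P112405 and between -0.78 and 0.71 for A_52_P681310.

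Serpine2 encodes protease nexin 1, a cell-surface serpin that blocks thrombin, urokinase and plasmin, and its lines parted more widely than its genotypes. Probe A_51_P268094, which matches 2 sides of an intron on the minus strand (chr1:79793476-79796093, mm9), read 1.33 and -1.97 in the Ip6k1+/+ lines, against 0.41 and -2.96 in the Ip6k1-/- lines. The replicate 1 line was the high one in each genotype, so the genotypes overlapped. The gap between lines was 3.30 in Ip6k1+/+ and 3.37 in Ip6k1-/-, as wide or wider in 1.16% and 1.49% of all probes. The genotype difference was -0.96 with a standard error of 1.55 (unadjusted p = 0.566, adjusted p = 0.993, limma), and it ranged from -2.65 to 0.73 when 1 line was left out. Replicate numbers tie no line of one genotype to a line of the other by the labels. The lines with high Serpine2 are those in which 3 Tfpi probes were dark.

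Serpinb2, the gene for plasminogen activator inhibitor 2, was dark or nearly so. Probe A_52_P639522 was detected in Ip6k1+/+ replicate 1 alone, at -4.63, and read -7.30 in the other Ip6k1+/+ line and -6.90 and -6.78 in the Ip6k1-/- lines. Probe A_51_P101146 was not detected in any line. The 2 probes share 20 identical bases at chr1:109421496-109421515 (mm9), shown because the probes are again not independent.
Serpinb2 shared stretch: ttggtagattctcctcaccc

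Set against all tested probes, the members fell into separate groups in the plot of genotype difference against the gap between lines. F3 had a wide difference and a narrow gap, Plat and Plau a small difference and a narrow gap, Plaur a gap and a mean difference near 0, and Thbd and Serpine2 a gap that exceeded the difference. In 4 of the 9 probes (Plaur on both, Serpine2 and Thbd), the wider gap between lines of 1 genotype was larger than the difference between genotypes.

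**Figure D4:**
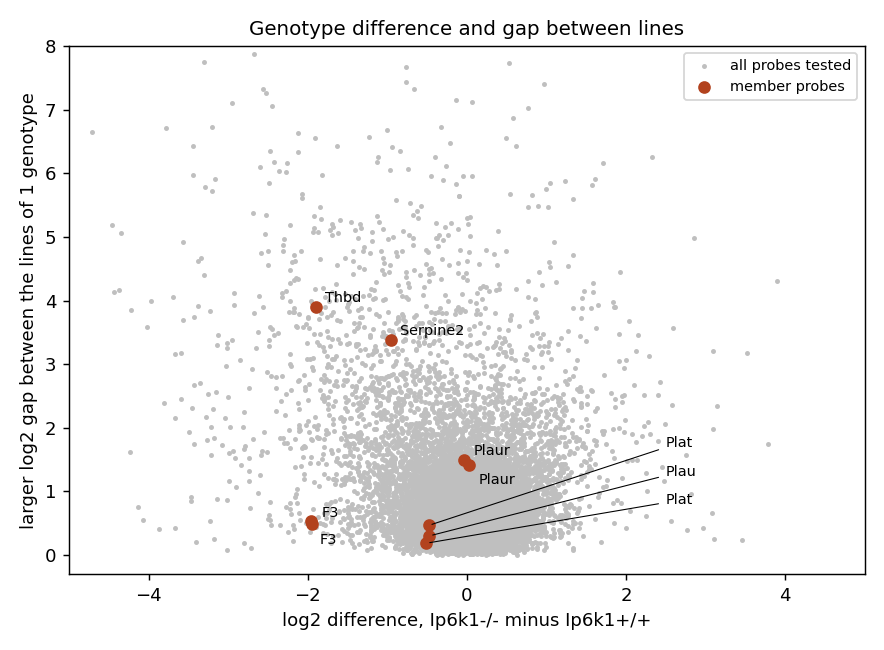
Log2 difference, Ip6k1-/- minus Ip6k1+/+ (x axis), against the larger of the 2 log2 gaps between lines of 1 genotype (y axis), for all 21572 probes tested (grey) and the 9 member probes (red, named), with 22 probes beyond the axes. F3 lies near -1.96 with gaps of about 0.53 and 0.49, while Thbd lies near -1.90 with a gap of 3.89.

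Other genes of the system were taken from 4 lists, 39 genes in all: plasminogen with its receptors and targets, other serpins, thrombin receptors with the protein C pathway, and coagulation factors. Of the 39 genes, 15 were tested on 19 probes, of which limma called 0 and passed 0 at an unadjusted p under 0.05. By the 2-fold cutoff 1 gene, Serping1, was lower, beside 5.2% of all gene names, and 0 were higher, beside 2.53%. Among the 15 genes 12 were below 0 and 3 above, beside 6455 and 7879 of 14334 gene names. Their median difference was -0.08. It was -0.06 for plasminogen receptors and targets (5 tested), -0.10 for serpins (4 tested), -0.16 for thrombin receptors and protein C genes (4 tested) and -0.46 for coagulation factors (2 tested). Of the 39 genes, 19 were dark in every line, among them 12 of the 17 coagulation factors, most of which are made by the liver, and plasminogen itself.

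Serping1, the gene for the C1 inhibitor, which blocks complement proteases, factor XII and kallikrein, read 0.33 and -1.63 in the Ip6k1+/+ lines, against -3.74 and -2.05 in the Ip6k1-/- lines on probe A_51_P376238. Both Ip6k1-/- lines were below both Ip6k1+/+ lines, by a margin smaller than the gaps within genotypes. The difference was -2.24 (standard error 0.89, unadjusted p = 0.0555, adjusted p = 0.993, limma).

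**Figure D5:**
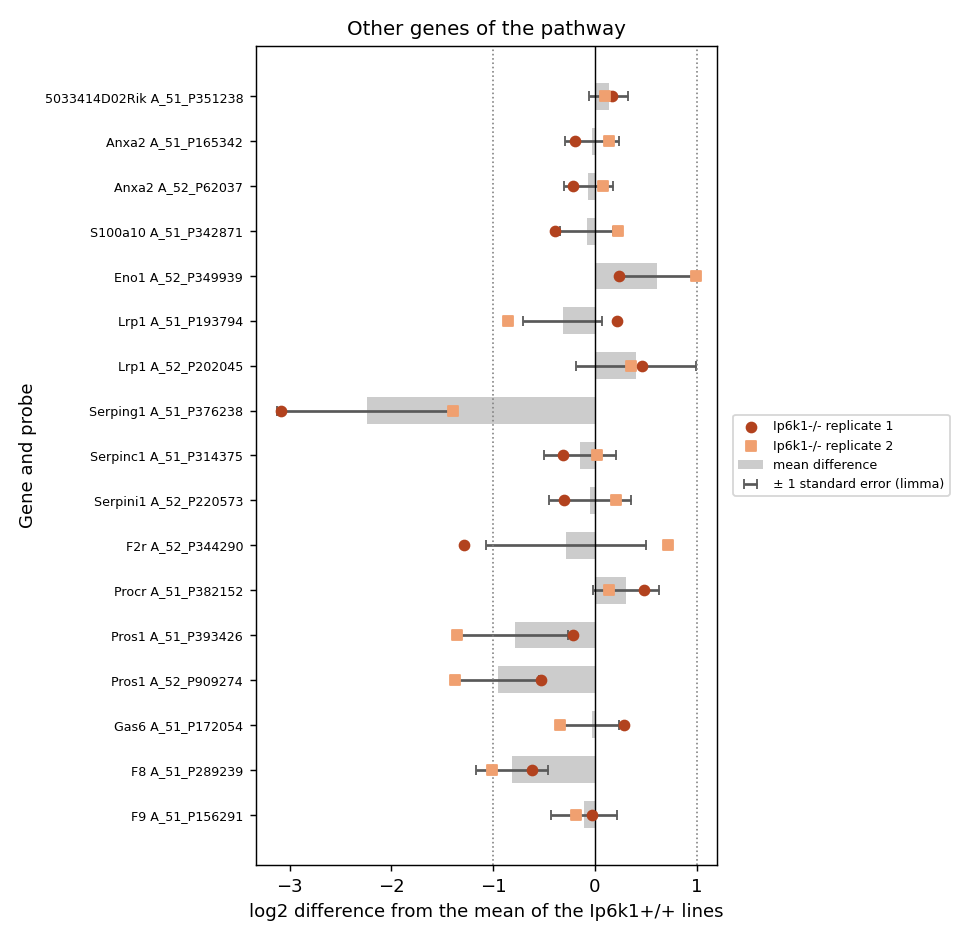
Log2 difference from the mean of the Ip6k1+/+ lines (x axis) for 17 tested probes of the 4 pathway lists (y axis), drawn as for the members, with bars for the mean, whiskers for 1 standard error of limma and points for the 2 Ip6k1-/- lines. Serping1, at -2.24 on average, is the bar that passes the 2-fold line, with both Ip6k1-/- lines past it.

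The genes whose signal across the 4 lines was most like that of F3 were found by the root mean square distance from probe A_51_P236846, each probe centred on its own mean over 4 lines, among 19956 probes detected in all lines. The nearest 3 were Isoc2b (distance 0.0718), Dkk3 (0.127), a secreted protein of the Dickkopf family, and Nr4a1 (0.149), an immediate early nuclear receptor. Isoc2b read -0.07 and -0.44 in the Ip6k1+/+ lines, against -2.40 and -2.07 in the Ip6k1-/- lines. Nr4a1 read 6.41 and 6.39, and 4.38 and 4.85. All 3 shared with F3 a lower signal in both Ip6k1-/- lines, as the search itself fixes. Their differences were -1.98, -1.77 and -1.79. In Ip6k1+/+ replicate 2 the marker S100a4 was saturated at 6.36, so the Nr4a1 reading of 6.39 there may be at the scanner's limit.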

How the data were processed

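RNA of 2 MEF lines per genotype was profiled on 4 arrays. The authors deposited spot intensity from Agilent Feature Extraction 10.5.1.1 (background-corrected, linear scale, mm9 probe positions) and a table of log2 values that GeneSpring had shifted to the 75th percentile. Per array, the authors' table lay above the values used here by a constant of 0.0838 to 0.111, with a median residual of 0.0025.

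From the deposited intensity, log2 values were computed and set relative to each array's 75th percentile over its 43379 non-control spots (signal 610 to 747). Spots with an outlier flag (96 to 133 per array) were left out, saturated spots kept, and spots of 1 probe averaged. A probe was tested if it had a value on every array and both arrays of 1 genotype or the other read well above background (21572 of 41174). Genotypes were compared in limma 3.58.1 under R 4.3.3 (lmFit, then eBayes with trend), with probes called at an adjusted p of at most 0.05 or counted at a fold of 2. The fit was tested on simulated data. No member probe was saturated, and all 15 member probes with a RefSeq match kept their symbol in the GRCm38.p6 table. A bound sets the bright line against the higher of the dim probe's own signal and the lowest well-above-background signal of its array (log2 -5.20 to -4.68). Arrays give no counts, and their number limits precision. Members and lists were chosen with earlier results of these data known. The text names the 9 members, Ip6k1, cell type markers, pathway genes past 2-fold, and the 3 genes nearest F3, and 1 further gene is not reported here. Alternatives were normexp (offset 50), quantile and median normalization, the deposited values, no or a stricter filter, outlier spots kept, a replicate block, no variance trend, the methods' t-test, a stricter fold rule and each line left out.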

Additional observations from a re-analysis of the deposited data

How the results depend on the processing

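Of 108 recomputed differences, 12 alternatives for each of 9 member probes, 100 kept their direction and 8 reversed. The reversals were Plaur on A_52_P681310 under median normalization (0.014) and, with 1 line left out, Plaur on A_51_P112405 (-0.68 and -0.11, range -0.68 to 0.73), Plaur on A_52_P681310 (0.71 and 0.06, range -0.78 to 0.71), Serpine2 (0.69 without Ip6k1+/+ replicate 1 and 0.73 without Ip6k1-/- replicate 2, range -2.65 to 0.73) and Thbd (0.045 without Ip6k1+/+ replicate 1, range -3.85 to 0.045). F3 stayed between -2.23 and -1.70 on A_51_P236846, and between -2.19 and -1.70 on A_52_P683413, when 1 line was left out, and between -1.99 and -1.90 on both under the other alternatives. Member genes called numbered 0 under every alternative run with all lines. Where the difference was recomputed with all lines, adjusted p-values of member probes in limma were no lower than 0.216. For no variance trend and the methods' t-test, only the number called was taken. The 3 probes called over the whole array became 0 with normexp, quantile normalization or the methods' t-test, 1 without the filter on dim probes, 1 with the all-array filter, and 0 whichever line was left out. The 2 member genes 2-fold lower were 1 (F3) without Ip6k1+/+ replicate 1 and 3 (Serpine2 added) without Ip6k1+/+ replicate 2 or Ip6k1-/- replicate 1. Without the filter, 1 member gene, Plau, was 2-fold higher and without overlap, on its probe that was detected in 1 line, and the pathway lists had 3 genes lower (F11, Kng1 and Serping1) and 1 higher (Vwf). With 1 line left out, 1 to 3 pathway genes were 2-fold lower (Pros1 added without Ip6k1+/+ replicate 2, Pros1 and F8 without Ip6k1-/- replicate 1, F2r without Ip6k1-/- replicate 2) and 0 to 1 (Lrp1, without Ip6k1+/+ replicate 2) higher. Member genes lower without overlap, 3 with all lines, were 3 to 6 with 1 line left out, 6 of them without Ip6k1+/+ replicate 2, and 0 to 1 were higher (1 without Ip6k1+/+ replicate 1), a set of alternatives chosen after seeing the data. Leaving out a line or changing the filter also changed the number of lines or probes. The cause of these shifts was not tested.

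The labels tie no replicate number to a shared batch, so whether the numbers pair the lines is not known, and 2 pairs cannot settle it. Across 21572 probes, the difference between replicates 1 and 2 correlated at 0.48 between genotypes, a value over genes that are not independent. With the replicate number as a block, limma called 3 probes and passed 1765 at an unadjusted p under 0.05, against 721 without the block. The block took the standard error of Serpine2 to 0.24 (unadjusted p = 0.0104, adjusted p = 0.451, limma) and the adjusted p of both F3 probes to 0.216, and it changed no call. The methods' t-test passed 849 probes before adjustment.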
